A study of Mus musculus with 6 samples.

Results

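The plasminogen activation and coagulation regulators were followed through every probe set that the platform annotation gives to 1 of 10 listed genes and to no other gene. They were Plat, Plau, Plaur, Serpinb2, Serpine2, Thbd, F3, Tfpi, Tfpi2 and Procr. Of the 45101 probe sets on the array, 14 met this rule, and they cover 9 of the 10 genes. Serpine2 was not analysed here. Expression was measured with Affymetrix arrays in cells labelled as mouse hepatic stellate cells, the liver pericytes that become matrix-producing myofibroblasts after injury. All cells were C57Bl/6 and carried CMV-rtTA;TRE-GFP-shRNA.p53.1224, a transgene pair in which rtTA, driven by the CMV promoter, needs doxycycline to switch on a green fluorescent protein with a hairpin against p53. The 3 proliferating arrays are of cells given 1 ug/ml doxycycline, with p53 knocked down. The 3 senescent arrays are of cells under control treatment, with p53 expressed. Doxycycline, the p53 state and senescence differ together between the groups and cannot be told apart. Of 12 stellate and mesenchymal genes, 9 had a mean above background, Acta2, Col1a2 and Pdgfrb among them. Gfap, Lrat and Reln, which mark quiescent stellate cells, were below background on all arrays. All 8 mesothelial markers had a mean above background, so the labelled cell type is not borne out by every marker. The transcript the hairpin targets is not analysed here. Cdkn1a and Mdm2, which p53 is known to activate, were 3.34-fold and 2.32-fold higher in the senescent group.

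Plasminogen is a circulating proenzyme that tissue-type plasminogen activator (Plat) or urokinase (Plau) cleaves to plasmin, a protease of fibrin and of matrix proteins. Urokinase works at the cell surface on its receptor (Plaur), and the serpin PAI-2 (Serpinb2) inhibits it. Coagulation starts where tissue factor (F3) meets factor VII, a step that the Kunitz inhibitor Tfpi blocks, and thrombomodulin (Thbd) and the protein C receptor (Procr) turn thrombin into an activator of the anticoagulant protein C. In the injured liver both systems are known to act on fibrin deposits and on scar matrix.

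Senescent cells had more RNA of the urokinase receptor, of PAI-2, of tissue factor and of the protein C receptor, and less of tissue-type plasminogen activator. Plaur was 2.59-fold, F3 2.85-fold and Procr 3.26-fold higher, Serpinb2 at least 3.10-fold higher and Plat 2.29-fold lower in its brighter probe set. Thbd was 1.29-fold higher, a change that turned to -0.23 (log2) when arrays were scaled to spike-in controls. Urokinase itself and the inhibitors Tfpi and Tfpi2 did not pass the threshold. Probe sets are described as called where limma over all 45037 probe sets that are not controls gave a Benjamini-Hochberg adjusted p under 0.05. Of the 14, 5 were called higher and 1 lower, against 5.99% and 6.39% of all probe sets. The arrays of the groups did not overlap for 8 of the 14, against 31% of all probe sets. The median log2 change was 0.22 for the 14 and 0.0021 for all probe sets.

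All levels are log2 values made by the authors with RMA, and differences are senescent minus proliferating. Array medians lay between 6.15 and 6.19, and correlations over probe sets were 0.995 to 0.997 within groups and 0.989 to 0.992 between them. Nothing in the labels ties the 3 arrays of a group to different mice or cultures, and the p-values reflect only how far these samples scatter, which may be technical. The 24 probe sets for poly-A spike-in controls, bacterial RNAs added before labelling, read 0.60 ± 0.17 (log2, SE, n = 3 per group) higher on the senescent arrays, with an exact two-sided permutation p of 0.1, the smallest that 3 against 3 can give. Scaling to them moved the median of all probe sets to -0.59, and the share of calls that were higher went from 48.4% to 0.893%, so each change here is relative to the bulk of probe sets. A level is described as below background under 5.57, a limit that 95% of 44 probe sets for olfactory receptor genes do not exceed in their mean, and 12 of the 14 had a mean above it.

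The bases before the transcription starts are shown for the 4 members called higher by at least 2-fold, the members the results turn on. RefSeq's promoter table (GRCm38.p6) held 7 of the 10 genes, in 11 windows (all but Plat, Plau and Thbd). Each line gives the 250 bases before the first listed start, 5' to 3' on the gene's strand, and capitals mark the AP-1 motif TGANTCA, the recognition sequence of FOS and JUN factors, searched on both strands. They lie at chr7:24462233-24462482 (Plaur), chr1:107511173-107511422 (Serpinb2), chr3:121723287-121723536 (F3) and chr2:155750967-155751216 (Procr), all on the plus strand.
Plaur: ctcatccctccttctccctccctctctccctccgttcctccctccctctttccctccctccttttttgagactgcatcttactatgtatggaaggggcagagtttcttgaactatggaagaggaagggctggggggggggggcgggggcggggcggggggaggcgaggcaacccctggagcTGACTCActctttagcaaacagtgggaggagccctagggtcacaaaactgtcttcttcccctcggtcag
Serpinb2: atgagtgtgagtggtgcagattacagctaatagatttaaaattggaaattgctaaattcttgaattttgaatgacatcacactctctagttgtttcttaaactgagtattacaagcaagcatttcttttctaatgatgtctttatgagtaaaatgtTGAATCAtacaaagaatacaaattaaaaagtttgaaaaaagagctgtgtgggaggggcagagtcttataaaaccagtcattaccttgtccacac
F3: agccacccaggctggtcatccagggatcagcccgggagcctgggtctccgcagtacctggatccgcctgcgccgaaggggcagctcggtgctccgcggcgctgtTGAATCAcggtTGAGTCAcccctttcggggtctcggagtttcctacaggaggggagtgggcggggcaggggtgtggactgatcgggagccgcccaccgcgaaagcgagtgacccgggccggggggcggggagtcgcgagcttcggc
Procr: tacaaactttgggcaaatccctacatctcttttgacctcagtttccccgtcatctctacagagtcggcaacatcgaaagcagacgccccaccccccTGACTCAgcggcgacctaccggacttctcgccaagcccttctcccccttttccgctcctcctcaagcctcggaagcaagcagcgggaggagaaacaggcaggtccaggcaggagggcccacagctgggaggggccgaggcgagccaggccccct

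Each of these windows held the AP-1 motif, at positions counted back from -1, the base before the start. Plaur had it from -69 to -63 as TGACTCA, and Procr from -154 to -148 as TGACTCA. Serpinb2 had it from -94 to -88 as TGAATCA, a site that the window of its second start holds as well. F3 had it from -146 to -140 as TGAATCA and from -135 to -129 as TGAGTCA. Of all 32851 windows of this length, 6.75% held it, and of 27025 genes 7.82% held it in at least 1 window. It also lay from -77 to -71 at the third listed start of Tfpi2, a gene below background on every array, where it overlapped a GCGTG, and it was not in the windows of Tfpi or Serpine2. The TATA box TATAAA, which is in 12.4% of all windows, lay from -29 to -24 at the first start of Serpinb2 (also within the window of its second) and, on the other strand, from -127 to -122 at the first of Tfpi, and the Sp1 GC box GGGCGG, in 32.7%, was in 6 of the 11 member windows. Of the other motifs searched, GCGTG of the xenobiotic response element (28.2% of all windows) was found in that Tfpi2 window only, and the p53 half-site (7.13%), the NF-kB site (7.25%) and the CArG box (1.47%) in none of the 11. These are matches of letters and not binding sites. The map of matches shows each window.

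**Figure D1:**
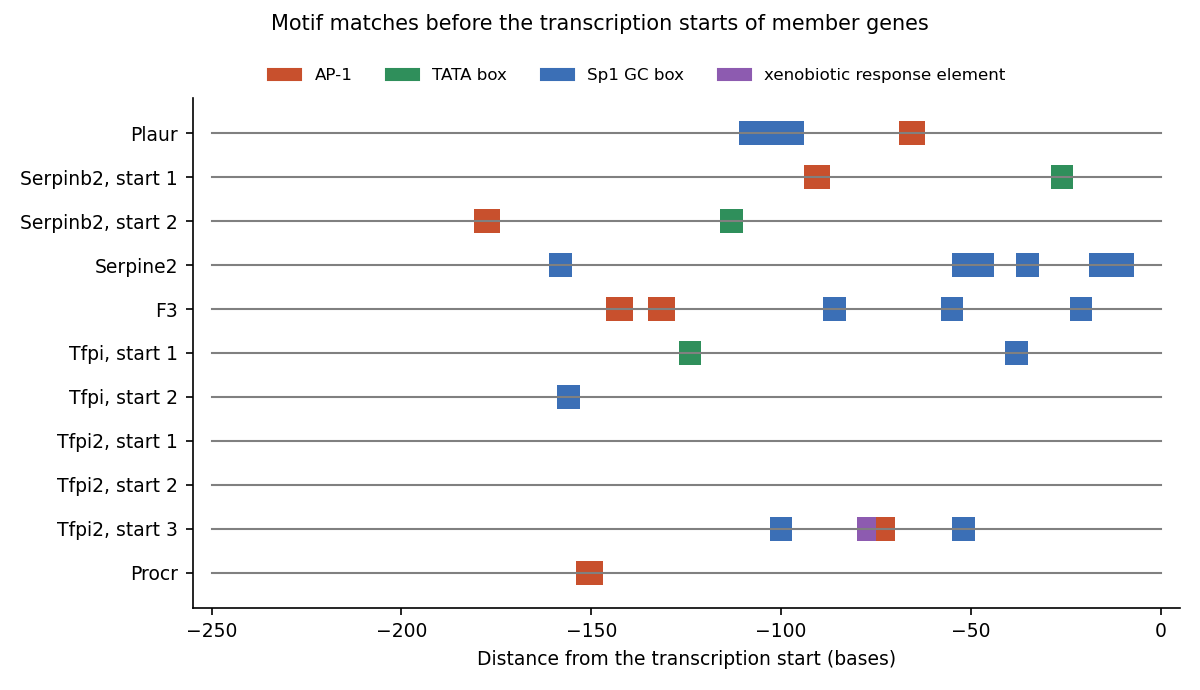
Positions of motif matches in the 250 bases before each listed transcription start of 7 member genes, by distance from the start (bases, x axis), coloured by motif. AP-1 matches begin between -154 and -69 at the first start of Plaur, Serpinb2, F3 and Procr. A match also begins at -77 at listed start 3 of Tfpi2, a gene below background on every array. Tfpi and Serpine2 have none, and the expression of Serpine2 was not analysed. Plat, Plau and Thbd had no window.

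The activators of plasminogen differed from each other. Plat encodes tissue-type plasminogen activator. Its brighter probe set, 1415806_at, read 11.40, 11.39 and 11.33 on the proliferating and 10.16, 10.40 and 9.98 on the senescent arrays. Every senescent array lay below every proliferating one, with a log2 change of -1.19 ± 0.11 (SE, limma adjusted p = 5.87e-04). The dimmer Plat probe set, 1458553_at, read 6.45, 6.17 and 6.10 against 6.26, 6.02 and 6.27. Those ranges overlapped, and the change was -0.055 with a 95% interval of -0.32 to 0.21, so the fall was seen in 1 of 2 probe sets. The mean of both gave -0.62. The interval of the dimmer one does not include the change of the brighter one.

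Plau encodes urokinase, and its brighter probe set, 1422139_at, read 6.91, 7.05 and 7.22 on the proliferating and 7.58, 7.43 and 7.13 on the senescent arrays. The third senescent array fell within the proliferating range, and the log2 change of 0.32 (95% interval 0.020 to 0.62) did not pass (limma adjusted p = 0.169). The dimmer Plau probe set, 1422138_at, read 5.05, 5.44 and 5.65 against 5.76, 5.70 and 5.44. Of these values 2 proliferating and 1 senescent were below background, so no fold is given. The change of the brighter probe set turned to -0.28 under spike-in scaling.

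Plaur encodes the urokinase receptor, a protein anchored in the membrane by a lipid. Its probe set, 1452521_a_at, read 9.33, 9.49 and 9.61 on the proliferating and 10.92, 10.91 and 10.71 on the senescent arrays. The groups were more than 1 log2 unit apart at their nearest arrays, and the change was 1.37 ± 0.10 (SE, limma adjusted p = 2.24e-04). With spike-in scaling it was 0.78.

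Serpinb2 encodes PAI-2, an inhibitor of urokinase that is largely kept inside cells. Its probe set 1419082_at read 4.67, 4.13 and 4.25 on the proliferating and 6.96, 7.62 and 7.04 on the senescent arrays. All proliferating arrays were below background and all senescent arrays above it. Set against the background level the rise was at least 3.10-fold (limma adjusted p = 1.79e-04). The size beyond that bound is not measured.

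F3 encodes tissue factor, the membrane receptor that starts coagulation. Its probe set 1417408_at read 11.39, 11.05 and 11.12 on the proliferating and 12.67, 12.86 and 12.57 on the senescent arrays. It was high on all arrays, and no arrays of the groups overlapped (log2 change 1.51 ± 0.12, SE, limma adjusted p = 2.71e-04). With spike-in scaling the change was 0.91.

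The inhibitor genes of that step did not rise with it past the threshold. Tfpi encodes tissue factor pathway inhibitor, and its 4 probe sets went both ways. Probe set 1438530_at read 11.35, 11.40 and 11.43 on the proliferating and 11.58, 11.72 and 11.44 on the senescent arrays, and 1452432_at read 10.09, 10.09 and 10.07 against 10.31, 10.38 and 10.03. Probe set 1451791_at read 11.41, 11.51 and 11.51 against 11.36, 11.43 and 11.31, and 1451790_a_at 11.08, 11.20 and 11.21 against 11.02, 11.11 and 10.83.

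The first pair of Tfpi probe sets thus read higher on average in senescent cells, by 0.19 (95% interval -0.020 to 0.39) and 0.16 (-0.080 to 0.39), and the second pair lower, by -0.11 (-0.29 to 0.068) and -0.18 (-0.39 to 0.041). None of these passed (limma adjusted p of 0.246 to 0.449). With spike-in scaling the changes were -0.41, -0.44, -0.71 and -0.77 in the same order. All but the first were then called lower (limma adjusted p of 0.0012 to 0.0443). Under that scaling 37047 of all 45037 probe sets were called, only 331 of them higher. These calls therefore do not measure evidence for a fall of Tfpi. Which transcripts of Tfpi each probe set reads is not given in the sources used here.

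Tfpi2 encodes a related Kunitz inhibitor of plasmin and other proteases, found in the matrix. Its probe set 1418547_at read 4.15, 4.13 and 4.01 on the proliferating and 3.98, 3.88 and 3.98 on the senescent arrays. All 6 values were below background, so no fold is given, although the groups did not overlap (limma adjusted p = 0.29).

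Both receptors of the protein C pathway were higher in senescent cells, by unequal amounts. Procr encodes the protein C receptor, which presents protein C to the thrombin-thrombomodulin complex. It read 10.75, 10.91 and 10.95 on the proliferating and 12.58, 12.59 and 12.55 on the senescent arrays. The senescent arrays lay within 0.1 of each other and far above the others (1.70 ± 0.08, SE, limma adjusted p = 3.42e-05, and 1.11 with spike-in scaling). The suffix _s_at of its only probe set, 1420664_s_at, stands for possible binding to transcripts of more than 1 gene, so its level is uncertain in that respect.

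Thbd encodes thrombomodulin, the surface receptor of thrombin. Its probe set 1448529_at read 10.25, 10.45 and 10.38 on the proliferating and 10.79, 10.78 and 10.60 on the senescent arrays. The groups did not overlap, but the gap between the nearest arrays was small, and the change was 0.36 ± 0.09 (SE, limma adjusted p = 0.0365). The call ended when proliferating replicate 1, 2 or 3 or senescent replicate 1 or 2 was left out (changes of 0.31 to 0.41, adjusted p of 0.0573 to 0.117), and the change was -0.23 with spike-in scaling. The calls of Plat, Plaur, Serpinb2, F3 and Procr held with each array left out in turn. The plot of levels by array shows all 14 probe sets, and the plot of changes their intervals.

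**Figure D2:**
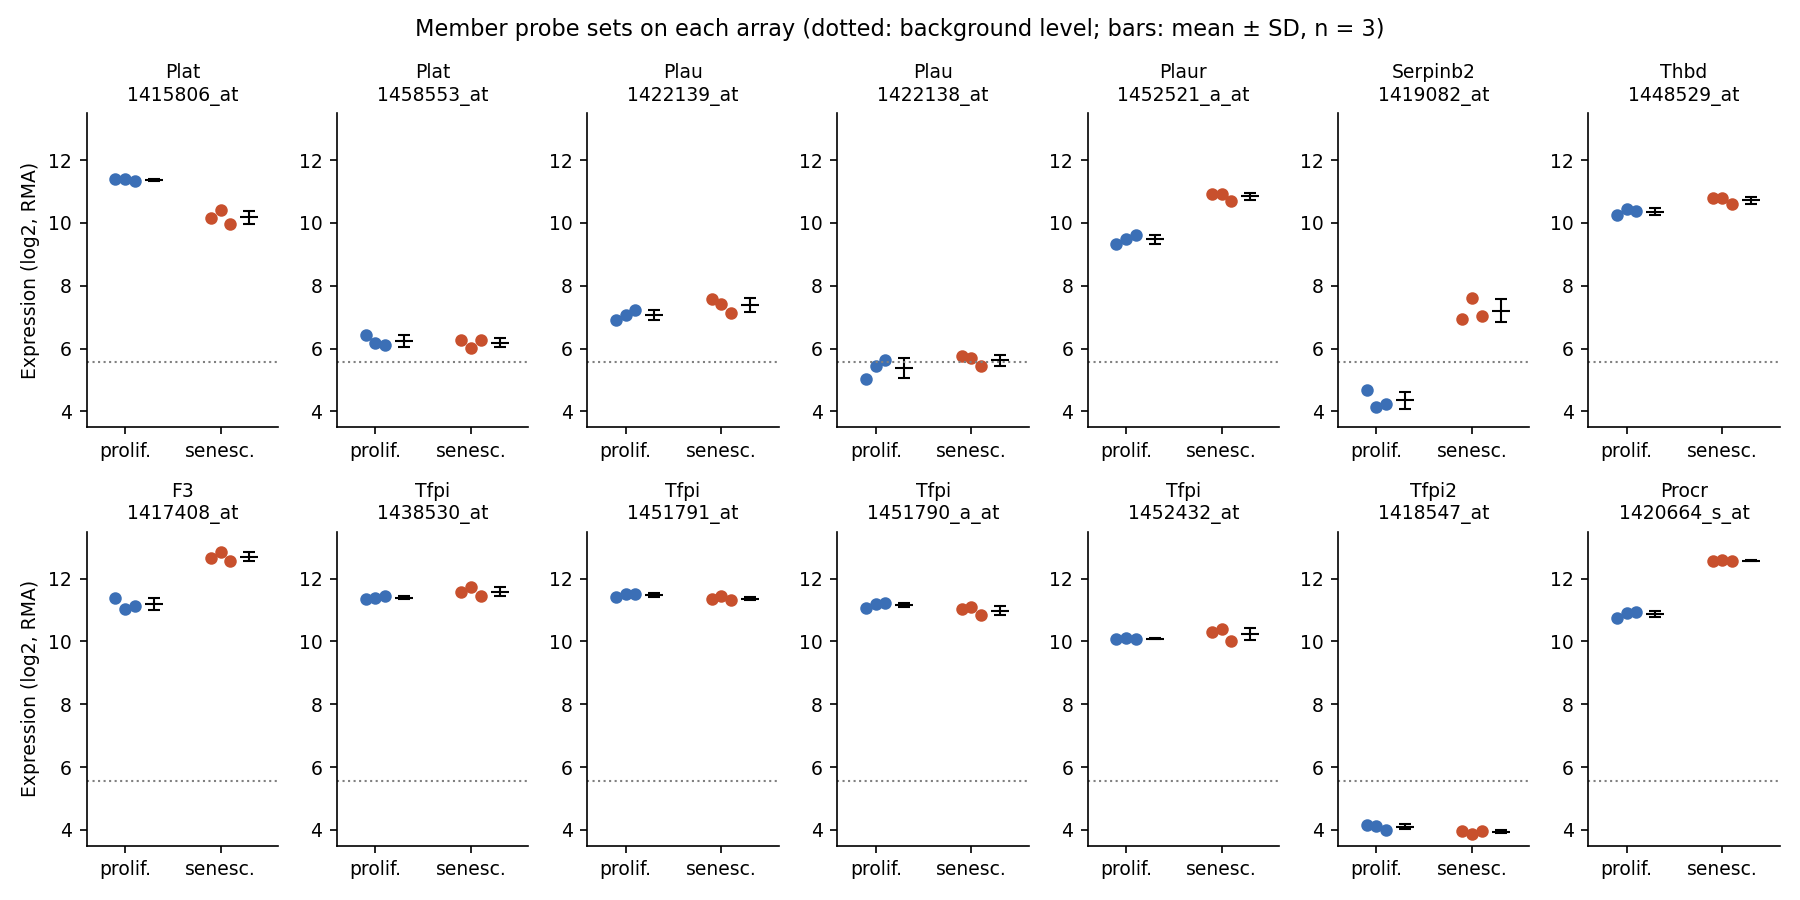
Level (log2 RMA value, y axis) of each member probe set on the 3 proliferating (blue) and 3 senescent (red) arrays, with black marks for mean ± SD and a dotted line at the background level of 5.57. The groups are well apart for Plaur, Serpinb2, F3, Procr and the brighter Plat probe set, and Tfpi2 lies below background on all arrays.

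**Figure D3:**
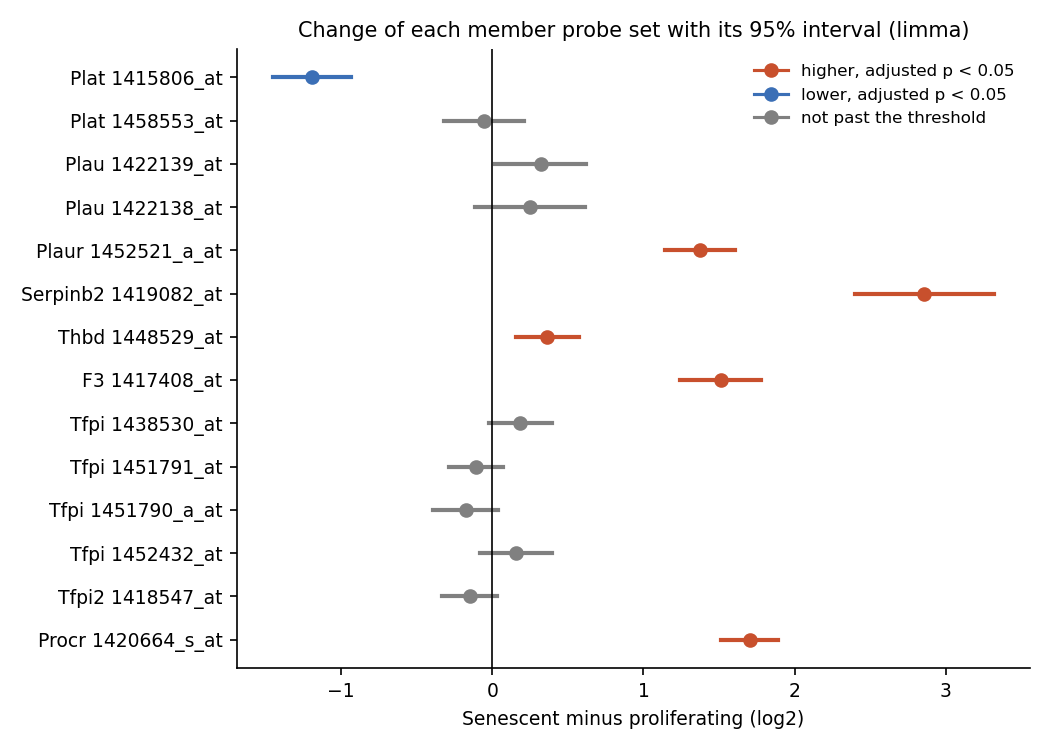
Change of each member probe set (x axis, senescent minus proliferating, log2) with its 95% interval from limma, red where called higher, blue where called lower and grey otherwise. The Serpinb2 point is fitted against values below background, and only a rise of at least 3.10-fold is supported there. The 4 Tfpi intervals all include 0, and with spike-in scaling Thbd would lie at -0.23.

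A likeness of pattern was measured as the distance between the 6 values of a pair of probe sets, each centred on its own mean, over the 6 arrays. Nearest to Serpinb2, whose proliferating values are below background, were Cxcr6 (distance 0.62 log2 units) and 2 probe sets of Nipal1 (0.77 and 0.81). Nearest to the brighter Plat probe set were probe sets of Scd2 (0.18), Sema6d (0.19) and Snai2 (0.20), with log2 changes of -1.10, -1.25 and -1.15. With 2 groups such distances mostly reflect the size of the change.

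Around the members, 5 lists of 84 pathway genes were read, each gene from its brightest probe set. A gene counted as not called may hold a dimmer probe set that passed. Of the 75 with a probe set of their own, 12 were called higher and 5 lower, against 7.6% and 8.22% of all 18193 genes read this way, and their median log2 change was 0.043 against -0.0018. Spike-in scaling takes the same 0.60 from the log2 change of every gene, so negative changes stay negative by construction. It also changes the SE. All 5 lower calls remained, under a scaling that called 37047 of all 45037 probe sets, only 331 of them higher. That they remained is therefore no further evidence for these 5 genes. Of the 12 called higher, 8 had changes smaller than 0.60 and turned negative, and 3 were still called. The counts of higher calls were 4 to 8 with 1 array left out, 4 of them without proliferating replicate 3 or senescent replicate 1 and 5 without senescent replicate 2 or 3. Lower calls numbered 3 to 4, with 3 when proliferating replicate 1 or 2 or senescent replicate 2 was left out. Calls of 7 of these 17 genes held with each array left out, those of Serpinb6a, Tgm2, Entpd1, Nt5e, Gas6, Serpinb9 and Serpinf1. The other 10 calls ended with at least 1 array left out, and those of Itgav and S100a10 with any of the 6.

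Among genes of plasmin formation, binding and clearance, 2 of 21 were called higher and none lower, against 7.6% and 8.22% of all genes. Dimmer probe sets of uncalled genes did pass, Lrpap1 higher (0.48 and 0.51, log2) and Igf2r lower (-0.47) among them. S100a10, a plasminogen-binding partner of annexin A2, was 1.22-fold higher (13.81 ± 0.07 to 14.10 ± 0.03, SD, n = 3, negative with spike-in scaling), and Vldlr, a receptor that takes up protease-inhibitor complexes, 1.53-fold higher (8.86 ± 0.29 to 9.47 ± 0.10). With spike-in scaling the change of Vldlr was 0.019 (log2), and its call ended with any 1 array but proliferating replicate 1 left out. Anxa2, the brightest not called, read 14.43 and 14.57 on average. The fibrinogen chains Fga, Fgb and Fgg were below background on all arrays.

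Of 12 further serpins and other genes listed with the inhibitors, not all of which inhibit proteases, 3 were called higher and 2 lower. The shares over all genes were 7.6% and 8.22%. Serpinb6a, an intracellular serpin, was 1.45-fold higher, from 13.44 ± 0.02 to 13.97 ± 0.03 (SD, n = 3). Serpinb8 and Serpini1, which encodes neuroserpin, an inhibitor of tissue-type plasminogen activator, were 1.37-fold and 1.36-fold higher. These 3 turned negative with spike-in scaling (-0.064, -0.15 and -0.16). Serpinb8 was called in 1 of 2 probe sets and Serpini1 in 1 of 3. Serpinf1, which encodes PEDF, a secreted serpin that does not inhibit proteases, was 3.06-fold lower, from 11.38 ± 0.39 to 9.77 ± 0.12. Serpinb9, an inhibitor of granzyme B, was 1.59-fold lower. Serpinh1, the collagen chaperone, was the brightest not called (13.28 and 13.11 on average).

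Of 18 coagulation factors and genes of their handling, 2 were called higher and none lower, against 7.6% and 8.22% of all genes. Among the 18, 9 were below background on all arrays, F2, F7 and F10 among them. Tgm2, tissue transglutaminase, which cross-links matrix proteins and fibrin, was 2.07-fold higher, from 11.62 ± 0.06 to 12.67 ± 0.09 (SD, n = 3), and 5 of its 6 probe sets passed. Mcfd2, a cargo receptor subunit for factors V and VIII, was 1.30-fold higher and -0.22 (log2) with spike-in scaling. Pdia3, a disulphide isomerase, was the brightest not called (13.75 and 13.63).

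Of 12 genes listed with the anticoagulants, not all of which are anticoagulants themselves, 3 were called higher and 2 lower. The shares over all genes were 7.6% and 8.22%. Entpd1 (CD39) and Nt5e (CD73), the surface enzymes that degrade ATP and ADP to adenosine, were 2.59-fold and 2.45-fold higher. Entpd1 went from 7.59 ± 0.28 to 8.96 ± 0.19 (SD, n = 3), in all 3 of its probe sets, and Nt5e from 10.04 ± 0.48 to 11.33 ± 0.21, in 2 of 3. Anxa5, which covers phosphatidylserine, was 1.24-fold higher and -0.29 (log2) with spike-in scaling. Gas6, a ligand of TAM receptors related to protein S, fell 2.64-fold, called in 1 of 2 probe sets. Serpind1, heparin cofactor II, was 1.69-fold lower. Ptgis, prostacyclin synthase, was the brightest not called (12.73 and 12.55).

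Of 12 protease receptors and integrins, 2 were called higher and 1 lower, against 7.6% and 8.22% of all genes. Itga3 and Itgav, integrin chains, were 1.40-fold and 1.22-fold higher, both negative with spike-in scaling (-0.11 and -0.31). Itga3 was called in 2 of 3 probe sets and Itgav in 1 of 5. Itgb3, the partner of Itgav in the vitronectin receptor, fell 1.29-fold, called in 1 of 2 probe sets. F2r, the thrombin receptor PAR1, was bright and not called (13.91 and 14.14). The plot of the pathway lists shows all 75 genes.

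**Figure D4:**
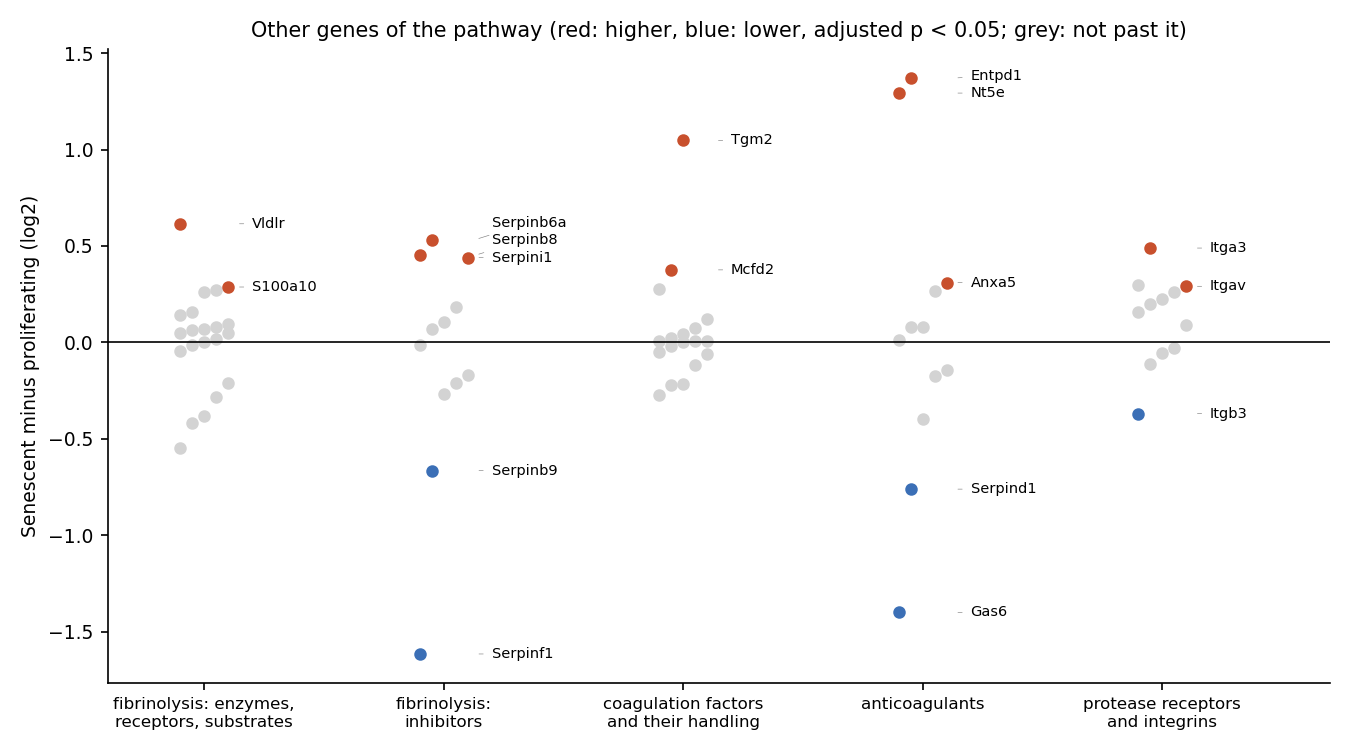
Change of each pathway gene (y axis, senescent minus proliferating, log2), by list, with called genes coloured and named. The largest changes are the rises of Entpd1 (1.37), Nt5e (1.29) and Tgm2 (1.05) and the falls of Serpinf1 and Gas6, and 8 of the 12 called higher were negative with spike-in scaling.

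Several members are known from endothelial, mesothelial or myeloid cells, so marker genes of those types were read as well. Counts of called markers stand against 7.6% higher and 8.22% lower over all genes. In bulk RNA, fewer cells of a type and less RNA per cell cannot be told apart. Of 12 stellate and mesenchymal genes, Acta2 (14.51 over 6 arrays), Col1a2 (14.71) and Pdgfrb (10.69), the receptor for platelet-derived growth factor, were bright, Des read 7.03, and Gfap, Lrat and Reln, which mark quiescent stellate cells, were below background on all arrays. This list's mean level was 10.80 to 10.87 on the proliferating and 10.60 to 10.61 on the senescent arrays, with 4 genes called lower. Pdgfrb fell by 1.30, Col3a1 by 0.93, Col1a1 by 0.56 and Col1a2 by 0.49 (log2).

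All 8 mesothelial markers had a mean above background, with Upk1b at 13.11, Upk3b at 12.52 and Msln at 11.19 over the 6 arrays. Their mean level was 10.41 to 10.68 in proliferating and 10.20 to 10.27 in senescent cells. Msln, Krt19 and Upk1b were called higher, by 0.79, 0.58 and 0.43 (log2), and Lrrn4, Wt1 and Gpm6a lower, by -1.80, -1.11 and -0.57. Krt19 and Upk1b changed by less than the 0.60 of the spike-in controls and are negative under that scaling. The part of cells with these markers in the member changes was not tested.

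Of 10 endothelial markers, 5 were below background on all arrays, Pecam1, Tek, Stab2, Lyve1 and Tie1. The list's mean was 5.64 to 5.80 in proliferating and 5.71 to 5.78 in senescent cells, and Cdh5 was called higher, from below background (5.02) to 5.74. Emcn (8.82 over 6 arrays), Kdr (7.18) and Flt1 (6.99) were above background and not called. Of 10 macrophage markers, Adgre1, Marco, Timd4, Ptprc and Tyrobp were below background, the mean was 5.65 to 5.77 and 5.77 to 5.83, and Csf1r was called higher (0.35). Cd14 (9.08), Clec4f (6.51), Lyz2 (6.10) and Cd68 (5.85) had means above background. Of 9 hepatocyte markers, Alb, Cyp2e1, Cps1, Fabp1 and Tat were below background, the mean was 5.26 to 5.55 and 5.39 to 5.60, and Apob was called higher (0.86). Ttr (6.76), Apoa1 (6.16) and Hnf4a (6.10) had means above background. Of 7 platelet markers, Pf4, Ppbp, Gp6 and Clec1b were below background, the mean was 5.67 to 5.76 and 5.67 to 5.69, and Ppbp was called higher (limma adjusted p = 0.0153), with no fold given since it was below background on all 6 arrays. Itga2b (8.37), Treml1 (6.76) and Gp9 (6.16) had means above background. Csf1r was called in 1 of 3 probe sets, and Cdh5 and Apob in 1 of 2 each. The change of Csf1r, too, is negative with spike-in scaling. The part of these cells in the member changes was not tested.

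**Figure D5:**
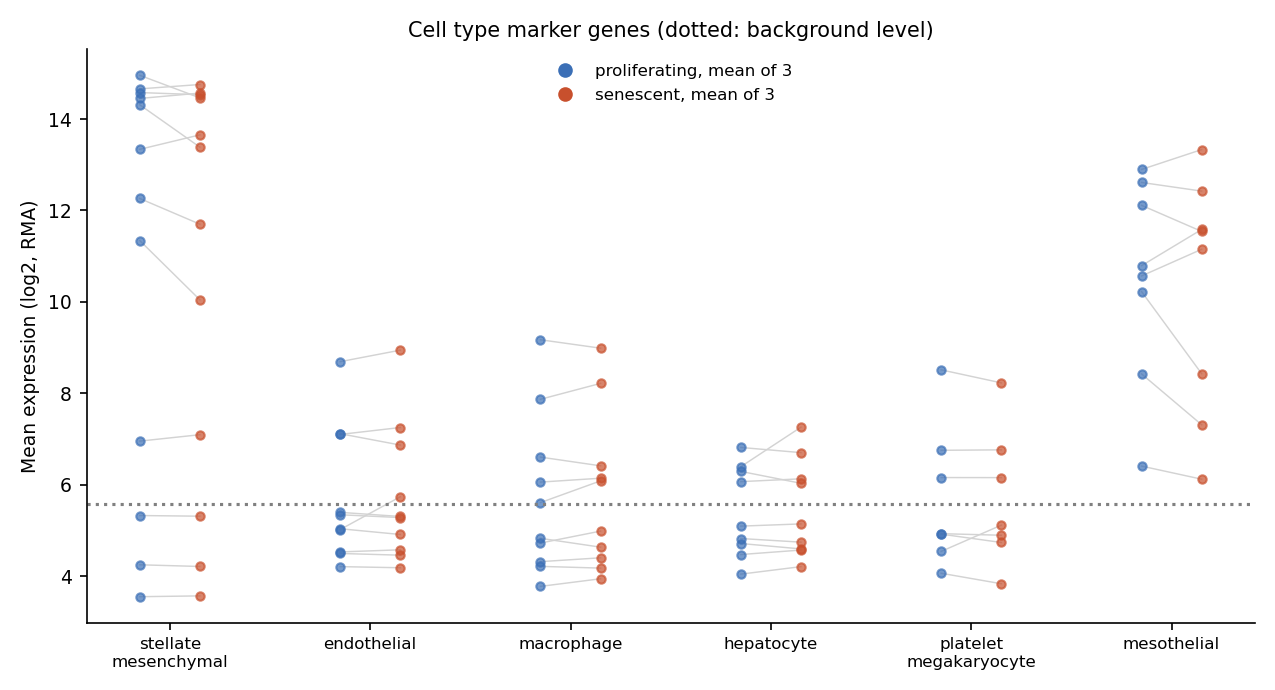
Mean level (log2 RMA value, y axis) of each cell type marker gene in 3 proliferating (blue) and 3 senescent (red) arrays, joined by a line, with the background level dotted. Mesothelial genes reach 13.11 over the 6 arrays, and the lowest 3 stellate genes, Gfap, Lrat and Reln, lie below background.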

How the data were processed

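RNA was extracted with Trizol and labelled with biotin, per the labels' protocols. Each array holds deposited log2 values that the authors summarised from probes to probe sets with RMA, per the submitters' processing notes. Of RMA's software and version, and of any batch, the sources used here say nothing. RMA makes the distributions of all arrays alike.

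Groups came from sample titles. The 45037 probe sets that are not controls went into limma 3.58.1 (lmFit, then eBayes; R version 4.3.3) without covariates, and p-values were Benjamini-Hochberg adjusted over all of them. The script was checked on simulated data. Of these probe sets, 34945 have 1 gene symbol in the platform annotation, 932 have several and 9160 none; symbols were updated through the Entrez number for the 34741 in RefSeq's table. With 3 arrays per group, their number limits the precision. No array was left out.

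Genes named are all members, up to 3 called genes per direction and the brightest uncalled gene of each pathway list, the 3 nearest patterns to the largest called rise and fall, and Cdkn1a and Mdm2. Other pathway genes and markers named were chosen after their values were seen. Members, lists and tests were chosen with earlier results of these data known. Alternatives covered the probe sets per gene, a background filter, the replicate number as a block, the variance model, 2 scalings and each array left out. Motifs were searched with Python 3.11.15, and figures drawn with matplotlib 3.10.9.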

Additional observations from a re-analysis of the deposited data

How the results depend on the processing

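The calls of Plaur, Serpinb2, F3 and Procr held under all 13 alternatives. That of the brighter Plat probe set held under 12, and in the other, which averages the probe sets of a gene, Plat as a gene was lower by a smaller amount, -0.62 ± 0.08 (log2, SE, limma adjusted p = 8.46e-04). Thbd lost its call with the replicate block (adjusted p = 0.0739). With 1 array left out, 4 to 5 member probe sets were called higher and 1 lower, and 4 to 8 and 3 to 4 pathway genes. Over all probe sets, 3258 to 5298 calls were made with 1 array left out, against 5579.

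The labels state no pairing by replicate number. Deviations of same-numbered arrays correlated at 0.11, -0.11 and -0.16, and those of differently numbered arrays at -0.22 to 0.29. With 3 arrays per group these values cannot decide whether the samples were paired. With the number as a block, 4229 probe sets were called in all, and pathway genes called higher fell to 7.

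Scaling to the poly-A controls made 37047 calls and moved member probe sets called lower to 6 and pathway genes called higher to 3 and lower to 54. It turned these log2 changes negative: Thbd -0.23, Plau -0.28 and -0.35, Tfpi -0.41 and -0.44, S100a10 -0.31, Anxa2 -0.45, Serpinb6a -0.064, Serpinb8 -0.15, Serpini1 -0.16, Mcfd2 -0.22, Anxa5 -0.29, Itga3 -0.11, Itgav -0.31 and F2r -0.37. That follows from the shift of -0.59 in the median of all probe sets. Each member probe set and named pathway gene had the same SE of 0.21 under that scaling. Its counts of calls therefore do not measure evidence for single genes. The mean over probe sets gave Pdia3 0.049, and the dimmer Plat probe set went from -0.12 to 0.048 with 1 array left out, above 0 without proliferating replicate 1 (0.048) and senescent replicate 2 (0.028). The cause was not tested for these, nor for Thbd. Levels near background, as for Tfpi2 and the dimmer Plau probe set, allow no fold.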

Other observations

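The genes next to the members were read from RefSeq's gene order, taking the 3 protein-coding genes on each side of each of the 9 members. Of 54 neighbours, 51 had a probe set of their own, and 5 were called higher and 4 lower, against 7.6% and 8.22% of all genes. Serpinb2 lies in a cluster of clade B serpin genes. Its neighbours Serpinb11 and Serpinb7 were below background on all 6 arrays, and Serpinb8 was higher by 0.45 ± 0.12 (log2, SE, limma adjusted p = 0.0425), a call that ended with any 1 array but proliferating replicate 2 left out and turned to -0.15 with spike-in scaling. The other neighbours of that cluster, Serpinb3c and Serpinb10, were not analysed here.

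Next to Plaur, Kcnn4, which encodes a calcium-activated potassium channel, and Irgq were higher by 0.50 ± 0.11 and 0.42 ± 0.11 (log2, SE, n = 3 per group). Next to Tfpi, Calcrl, the receptor subunit for adrenomedullin, was higher by 0.60 ± 0.13, while Fam171b fell by 0.57. Next to Procr, Eif6, a ribosome biogenesis factor, was higher by 0.36 ± 0.08. Next to F3, Arhgap29 fell by 0.36, next to Plat, Kat6a fell by 0.33, and next to Tfpi2, Bet1 fell by 0.45. The neighbours were chosen by position, and those named here after their values were seen. None of the 5 rises exceeded the 0.60 of the spike-in controls by more than its SE. None of the 12 nearest genes of Thbd and Plau was called.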
